A study of Mus musculus with 6 samples.

Results

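The genes described here move amino acids into pancreatic cells, make and break them down, and load them onto transfer RNA. They were taken from the count files by symbol as a fixed list of 52 names, all 52 of which were found among the 23337 symbols of each file. The list holds 17 transporters, 22 enzymes and 13 cytosolic tRNA synthetases. After the filter on low counts, 50 of the 52 were tested. Slc3a1 and Gldc were too low, with at most 3 counts in any library.

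RNA was sequenced from whole pancreas of NMRI mice at postnatal day 7, with 3 control and 3 mutant libraries. Control mice were Ptf1a cre/+. Mutant mice carried the same Cre allele together with CAG-loxP-STOP-loxP-Prox1-LacZ, a transgene under the CAG promoter in which Cre removes a stop cassette so that Prox1 and LacZ are made. Both groups carry Cre at 1 Ptf1a allele, and the transgene is switched on in cells of the Ptf1a lineage, which includes acinar cells. The design text calls the controls pools and the mutants single pancreata, while the extraction protocol speaks of individual organs, so pooling and genotype cannot be told apart. No source ties the libraries to litters or days, and p-values measure only the spread between these 6 samples.

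Acinar cells make digestive enzymes at a very high rate, and this demands a large flow of amino acids. Carriers of the Slc7, Slc38 and Slc1 families bring amino acids across the cell membrane, and enzymes convert glycolytic intermediates and glutamate into serine, glycine, asparagine and proline. Each aminoacyl-tRNA synthetase then couples 1 amino acid to its tRNA. Many of these genes are known targets of Atf4, the transcription factor that is translated when amino acids are short or the endoplasmic reticulum is under stress. Atf4 acts with C/EBP proteins at a composite site whose core reads TGATGNAA.

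That core was searched on both strands of 300-base promoter windows (250 bases before to 50 after each start, RefSeq, build GRCm38.p6), to show which members carry it. Of the 52 members 38 had an entry, with 48 windows in all. It occurred in 12 of the 48 windows (25.0%), belonging to 11 members, against 2.29% of the 12013 windows of all tested genes and 3.97% of all 32851 windows. Slc7a7 had overlapping windows that hold the same site, so that site was counted in each of them. A match is a string of letters and not a measured binding site. The stretches below are written 5′ to 3′ along the strand on which the core reads TGATGNAA, with the core in capitals.
Asns, chr6:7693209-7693248, minus strand: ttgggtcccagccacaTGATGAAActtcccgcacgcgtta
Pycr1, chr11:120643828-120643867, minus strand: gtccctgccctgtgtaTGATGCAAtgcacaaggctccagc
Slc7a11, chr3:50443656-50443695, minus strand: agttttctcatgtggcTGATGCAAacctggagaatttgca
Slc7a11, chr3:50443637-50443676, plus strand: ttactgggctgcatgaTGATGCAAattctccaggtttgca
Slc1a4, chr11:20332694-20332733, plus strand: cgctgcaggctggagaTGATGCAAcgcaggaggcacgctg
Slc7a7, chr14:54417922-54417961, minus strand: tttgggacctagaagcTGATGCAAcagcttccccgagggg
Slc7a7, chr14:54418062-54418101, minus strand: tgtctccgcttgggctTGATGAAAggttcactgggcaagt
Got1, chr19:43524684-43524723, plus strand: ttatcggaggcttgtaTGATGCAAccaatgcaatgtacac
Aars, chr8:111033714-111033753, minus strand: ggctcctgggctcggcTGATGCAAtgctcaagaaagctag
Aars, chr8:111033835-111033874, minus strand: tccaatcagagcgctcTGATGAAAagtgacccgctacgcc
Gars, chr6:55037955-55037994, minus strand: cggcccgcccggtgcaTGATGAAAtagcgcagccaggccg
Iars, chr13:49682121-49682160, minus strand: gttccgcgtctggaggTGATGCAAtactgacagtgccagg
Tars, chr15:11399650-11399689, plus strand: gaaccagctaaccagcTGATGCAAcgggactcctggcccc
Yars, chr4:129189890-129189929, plus strand: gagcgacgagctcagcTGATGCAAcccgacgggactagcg

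In Asns the core began 23 bases before the start site, and in Slc7a11 it lay 66 and 47 bases before the start on opposite strands, within stretches that overlap each other. Of the 4 members that fell in mutants, described next, Gcat had an entry and its window held no match. Slc7a4, Gls2 and Wars had none, nor did Slc1a5, Slc7a2, Slc7a5, Slc38a1, Slc38a3, Tdh, Cars, Lars, Mars, Nars and Vars.

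Expression was compared between mutants and controls to see how these genes differed when the Prox1 transgene was switched on. Values are CPM, counts per 1000000 counts of the library, with library sizes scaled by TMM (a method that keeps a few very abundant genes from setting the scale), and a call is an adjusted p under 0.05 by the quasi-likelihood test of edgeR. Of the 50 members tested, 4 were lower in mutants and 0 were higher, that is 8%, where 2.06% of all 13017 genes tested were called (1.51% lower and 0.545% higher). The 4 were the synthetase Wars, the threonine and glutamine breakdown enzymes Gcat and Gls2, and the transporter Slc7a4. At an unadjusted p under 0.05 by edgeR 15 members were lower and 2 higher, beside 7.36% and 5.41% of all genes tested. DESeq2 called 6 members lower and 0 higher, beside 1.62% and 0.578% of the 14696 genes it tested. These shares are the background for the counts of each gene list given below. Members and lists were chosen with earlier results of these data known. A count above its share is therefore a description and no test of an excess. The groups did not overlap in 13 members that were lower in mutants and 3 that were higher, against 9.86% and 9.13% of all genes tested (19% in either direction). The median log2 fold change (mutant over control) was -0.27 over the 16 tested transporters, -0.18 over the 21 tested enzymes and 0.01 over the 13 synthetases, beside 0.00 over all genes tested.

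With library totals in place of TMM the median of all genes shifted to 0.17. With TMM 26.5% of the 268 genes called were higher in mutants, and with library totals 59.4% of 320 were. Among members 2 were then called higher and 2 lower. Leaving out mutant 2 gave 4 members lower and 1 higher. Leaving out another library gave 0 higher and 3 lower (control 1), 1 lower (control 2) or 2 lower (control 3, mutant 1 or mutant 3).

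Facts of the libraries bear on these counts. Totals lay between 7304727 and 10773223, so 1 CPM stood for 6.65 to 10.5 counts after scaling, and members took between 0.397% and 0.444% of a library. Prox1 was at 10.8, 7.84 and 9.13 CPM in controls 1 to 3 and at 25.5, 31.3 and 30.9 CPM in mutants 1 to 3, with no overlap. Its log2 fold change was 1.67 ± 0.15 (SE, n = 3; edgeR adjusted p = 0.000239). Control 1 was the only library with Xist in number (7110 counts, at most 4 elsewhere).

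Mutant 2 stood apart for the transporters and enzymes. It held the lowest of the 6 values in 32 of the 50 members (64.0%), where it was the lowest in 19.7% of all genes tested. Its median member deviated by -0.42 from the control mean among transporters and by -0.41 among enzymes on the log2 CPM scale, against -0.15 and 0.06 in mutant 1 and -0.14 and -0.20 in mutant 3. The same value in single controls lay between -0.15 (control 1) and 0.11 (control 3) among transporters. Among enzymes it lay between -0.07 (control 2) and 0.07 (control 1). Among synthetases it was -0.06 in mutant 2, 0.12 and 0.08 in mutants 1 and 3 and -0.08 to 0.05 in controls. Beside this, the summed level of 8 lymphocyte markers was 101 CPM in mutant 2, 7.24 and 7.09 CPM in mutants 1 and 3 and 7.97 to 29.0 CPM in controls. The 13 acinar markers summed to 285342 CPM in mutant 2, 335351 and 343653 CPM in the other mutants and 343039 to 378736 CPM in controls. All genes together summed to 896843 CPM in mutant 2, 948099 and 991652 CPM in the other mutants and 1035410 to 1098390 CPM in controls. The part of these cell markers in the member values was not tested. In whole tissue, fewer cells of a type and less RNA per cell cannot be told apart.

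**Figure D1:**
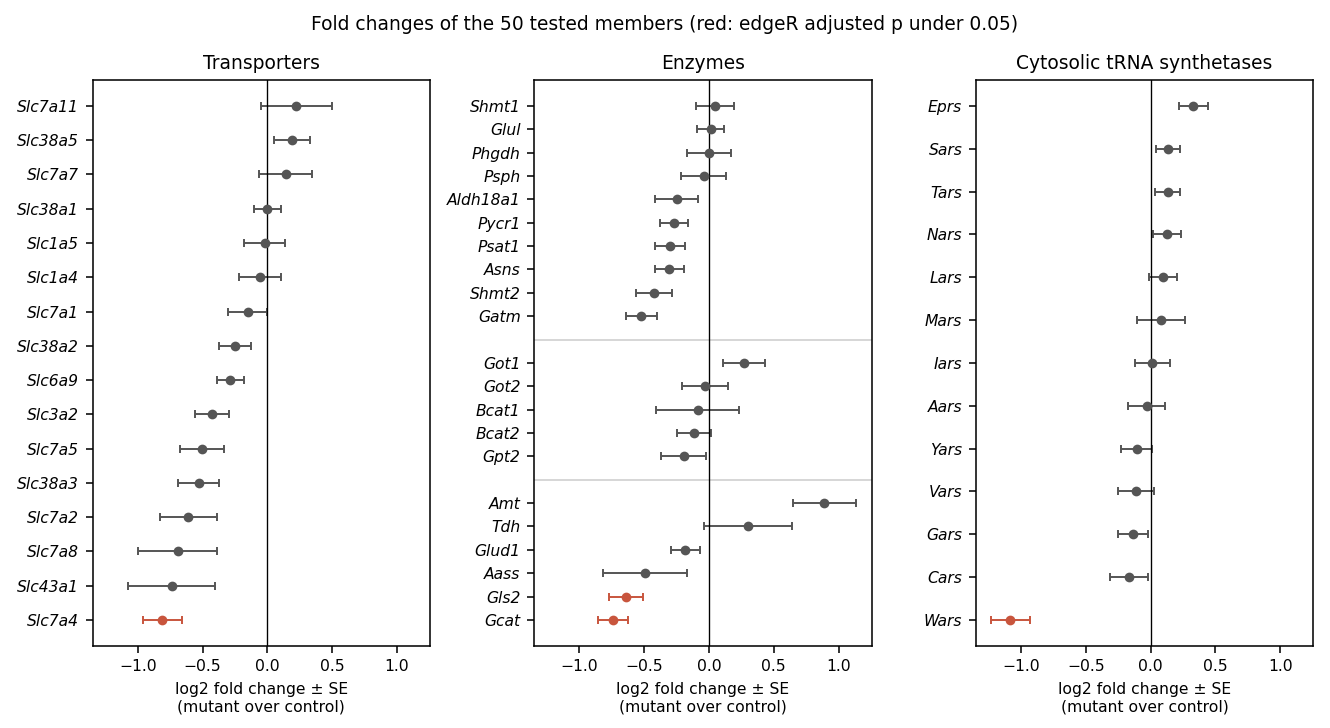
Log2 fold change (mutant over control, horizontal axis) with its standard error for each of the 50 tested members, in 3 panels for transporters, enzymes (from the top synthesis enzymes, transaminases, breakdown enzymes) and cytosolic tRNA synthetases, from 3 libraries per group. Red marks the 4 members past an edgeR adjusted p of 0.05, namely Slc7a4, Gls2, Gcat and Wars, all left of 0, and among synthetases Wars lies at -1.08 while the other 12 lie between -0.17 and 0.33.

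Slc7a4 was the transporter that fell. It belongs by sequence to the cationic amino acid transporter group of the Slc7 family, although transport by it has been hard to show, and lies at chr16:17572018-17583214 on the minus strand (GRCm38). Its level was 17.1, 18.3 and 21.2 CPM in controls 1 to 3 and 9.90, 9.86 and 12.7 CPM in mutants 1 to 3. All 3 mutants lay below all 3 controls. The fall was 1.75-fold, with a log2 fold change of -0.81 ± 0.15 (SE, n = 3; edgeR adjusted p = 0.0204). The call was lost without control 2, control 3 or mutant 1 (edgeR adjusted p = 0.0841, 0.0992 and 0.109) and with library totals (0.0575). Of its exon bases 13.3% overlap P2rx6 on the opposite strand, and since no source states a strand setting, reads from there could belong to either gene.

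Of the other 15 transporters tested by edgeR none was called, 6 of them being lower at an unadjusted p under 0.05. Slc38a3, a sodium-coupled glutamine transporter, had the highest level per length among transporters, 46.1 CPM per kb of exon in controls and 31.9 in mutants. It stood at 216, 249 and 265 CPM in the control libraries and 164, 134 and 207 CPM in mutants. The groups lay apart by a narrow gap, and the log2 fold change was -0.53 ± 0.16 (SE, n = 3; edgeR adjusted p = 0.163), while DESeq2 gave an adjusted p of 0.0246.

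Slc3a2 encodes the heavy chain that brings several Slc7 light chains to the membrane. It was at 77.0, 89.5 and 96.0 CPM in the 3 controls and 75.2, 56.7 and 63.4 CPM in mutants, which did not overlap (log2 fold change -0.43). The light chains within the set differed among themselves. Slc7a5, a carrier of large neutral amino acids, had -0.50 and overlapping groups, Slc7a8, with a similar range of substrates, had -0.69 and Slc7a7, a carrier of cationic and neutral amino acids, had 0.14. In Slc7a8 mutant 2 was at 12.996 CPM, while mutant 1 at 38.4 CPM lay above 2 of the 3 controls (35.2 and 37.0 CPM). Slc7a11, the cystine and glutamate exchanger, had 9.47, 18.0 and 15.9 CPM in controls against 17.3, 10.9 and 22.8 CPM in mutants, and these groups overlapped throughout.

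Among cationic amino acid carriers, Slc7a2 had a log2 fold change of -0.61 ± 0.22 and Slc7a1 of -0.15 ± 0.15 (SE, n = 3). Slc7a2 was at 57.3, 44.5 and 35.9 CPM in the control libraries and 39.2, 21.5 and 28.7 CPM in mutants, with mutant 1 above control 3. The sodium-coupled neutral carriers had values of -0.25 for Slc38a2, 0.00 for Slc38a1 and 0.19 for Slc38a5. Slc38a2 was at 173, 196 and 180 CPM in the 3 controls and 163, 129 and 170 CPM in mutants, a separation of the groups by less than the spread among mutants.

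Slc6a9, a glycine transporter, was at 76.2, 88.7 and 92.4 CPM in controls against 68.6, 67.6 and 75.3 CPM in mutants, and 30.2% of its exon bases overlap genes on the opposite strand. The exchangers Slc1a4 (-0.06) and Slc1a5 (-0.02), which both carry alanine, serine and cysteine, were near 0. Slc43a1, a further carrier of large neutral amino acids, had -0.74 ± 0.34 (SE, n = 3), a value set largely by control 2, which held 12.0 CPM while the other 5 libraries held 4.18 to 5.71 CPM. Slc3a1, the heavy chain of the cystine carrier, had 0 to 3 counts per library.

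**Figure D2:**
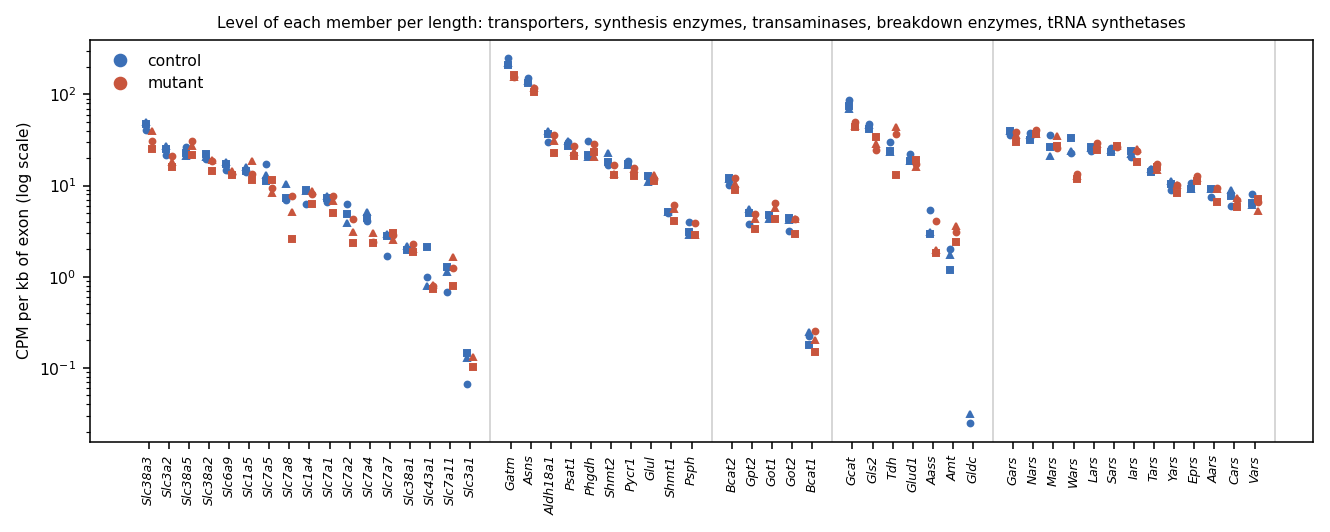
Level of each member in CPM per kb of annotated exon (log scale) in the 3 control (blue) and 3 mutant (red) libraries, with circles, squares and triangles for replicates 1, 2 and 3, grouped from left to right as transporters, synthesis enzymes, transaminases, breakdown enzymes and tRNA synthetases. Values of 0 are not drawn, and Gatm and Asns have the highest levels in both groups, with control means of 227 and 141 CPM per kb.

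No synthesis enzyme was called by edgeR, while 5 of the 10 were lower at an unadjusted p under 0.05 (7.36% of all genes) and DESeq2 called 1, Gatm. Gatm encodes the enzyme that joins arginine and glycine in the first step of creatine synthesis and is known to be abundant in pancreas. It was at 755, 631 and 657 CPM in the control libraries and 461, 489 and 472 CPM in mutants. The groups did not overlap, and controls spread more widely (SD 65.2 CPM) than mutants (SD 14.3 CPM). Its log2 fold change was -0.52 ± 0.12 (SE, n = 3; edgeR adjusted p = 0.0624), and edgeR with robust dispersion gave an adjusted p of 0.0430.

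Asns, asparagine synthetase, followed with 410, 369 and 380 CPM in the 3 controls and 326, 291 and 320 CPM in mutants. The groups did not overlap and the log2 fold change was -0.31 ± 0.11 (SE, n = 3; edgeR adjusted p = 0.267). Serine is made from a glycolytic intermediate by Phgdh, Psat1 and Psph in turn. Psat1, the middle enzyme, was at 127, 116 and 132 CPM in controls against 115, 90.3 and 98.7 CPM in mutants (log2 fold change -0.30), while Phgdh had 0.00 ± 0.17 and Psph -0.04 ± 0.18 (SE, n = 3). The count of Phgdh is less certain, since 47.8% of the 50-base stretches of its transcripts also occur in other genes, the pseudogene Gm7901 sharing the most.

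Shmt2, which turns serine into glycine in mitochondria, had 52.03, 57.1 and 70.9 CPM in the control libraries and 51.89, 40.5 and 42.1 CPM in mutants, so that mutant 1 nearly met control 1. Shmt1, its cytosolic counterpart, had a log2 fold change of 0.05. The proline pathway enzymes Aldh18a1 and Pycr1 had -0.25 and -0.27. Pycr1 was at 72.6, 67.2 and 66.5 CPM in the 3 controls and 61.2, 50.01 and 59.5 CPM in mutants, without overlap. Glul, which makes glutamine, was at 36.3 to 42.1 CPM in controls against 37.7 to 43.7 CPM in mutants.

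The 5 transaminases, which pass amino groups between amino acids and keto acids, all had overlapping groups. None was called by edgeR, at an unadjusted p under 0.05 or by DESeq2. Their log2 fold changes were 0.27 for Got1 and -0.03 for Got2, the cytosolic and mitochondrial aspartate aminotransferases, -0.20 for the alanine aminotransferase Gpt2, and -0.09 and -0.12 for Bcat1 and Bcat2, which act on branched-chain amino acids. Bcat1 was low, at 1.39 to 2.38 CPM over the 6 libraries.

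Of 6 breakdown enzymes tested 2 fell and 0 rose by edgeR. At an unadjusted p under 0.05 by edgeR 2 were lower and 1 higher (Amt), and DESeq2 called 2 lower and 0 higher. Gcat, a mitochondrial enzyme that completes threonine breakdown to glycine and acetyl-CoA, was the breakdown enzyme with the highest level per length, 76.8 CPM per kb in controls and 46.0 in mutants. The gene lies at chr15:79030874-79038353, plus strand. Its level was 206, 179 and 164 CPM in controls 1 to 3 and 118, 104 and 107 CPM in mutants 1 to 3. Every mutant lay well below every control. The fall was 1.67-fold, with a log2 fold change of -0.74 ± 0.12 (SE, n = 3; edgeR adjusted p = 0.00847). Without control 2 or mutant 3 the edgeR adjusted p was 0.0531 and 0.0556.

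Tdh, threonine dehydrogenase, catalyses the step just before Gcat. It was at 78.2, 62.1 and 61.1 CPM in the control libraries and 97.5, 34.0 and 115 CPM in mutants. Mutants 1 and 3 lay above all controls and mutant 2 below all of them, so the log2 fold change of 0.30 ± 0.34 carried a wide error (SE, n = 3; edgeR adjusted p = 0.796). Without mutant 2 it was 0.67 and Tdh was called higher (edgeR adjusted p = 0.0235), and without mutant 3 it was -0.02. The ratio of Gcat to Tdh CPM, a description with no test, was 2.63 to 2.89 in controls, 1.21 and 0.927 in mutants 1 and 3 and 3.05 in mutant 2.

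Gls2, the liver-type glutaminase that releases ammonia from glutamine in mitochondria (chr10:128194457-128210004, plus strand), fell 1.56-fold. It stood at 165, 146 and 161 CPM in the 3 controls and 84.9, 119 and 98.4 CPM in mutants, and all 3 mutants were lower. The log2 fold change was -0.64 ± 0.13 (SE, n = 3; edgeR adjusted p = 0.0357). This call was lost without any 1 library other than mutant 2 (edgeR adjusted p between 0.0975 and 0.152), with library totals (0.119) and with a block for replicate number.

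Among the other breakdown enzymes, Amt, a subunit of the glycine cleavage system, was at 4.96, 2.87 and 4.23 CPM in the control libraries and 7.62, 5.80 and 8.69 CPM in mutants. The groups did not overlap, the log2 fold change was 0.89 ± 0.24 (SE, n = 3; edgeR adjusted p = 0.120), and with library totals the edgeR adjusted p was 0.0477. Gldc, the decarboxylase of the same system, had 0 to 2 counts per library. Glud1, glutamate dehydrogenase, had -0.18, and Aass, the first enzyme of lysine breakdown, had -0.49 ± 0.32 (SE, n = 3) with control 1 at 20.4 CPM and mutant 1 at 15.5 CPM above the other 4 libraries.

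**Figure D3:**
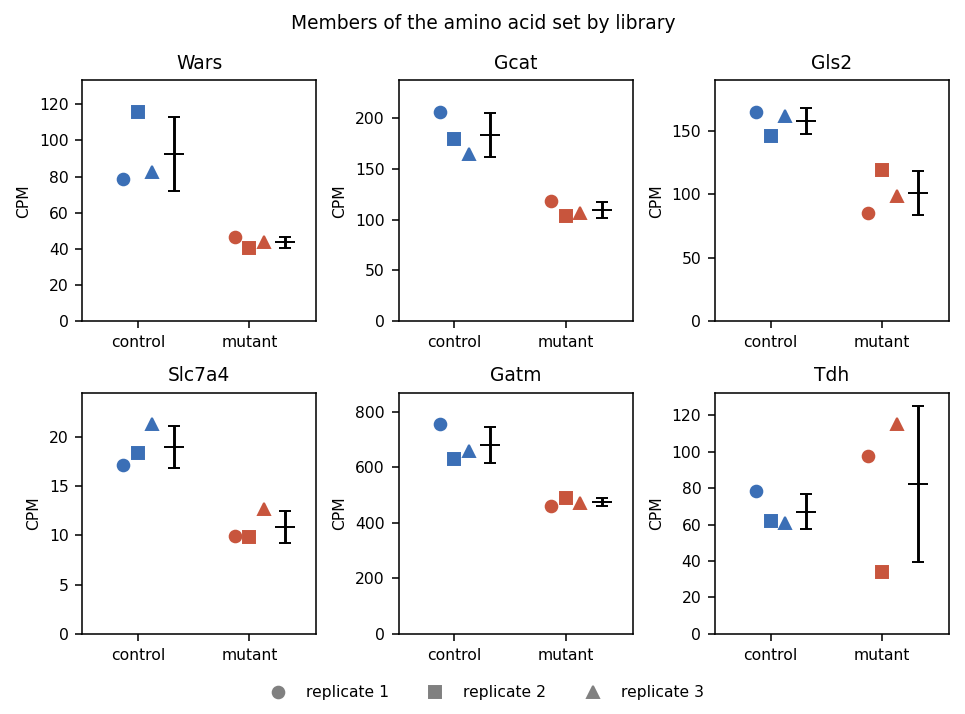
CPM of 6 members in each library, with circles, squares and triangles for replicates 1, 2 and 3 and, beside each group, its mean with the SD of 3 libraries. Wars, Gcat, Gls2, Slc7a4 and Gatm show mutants below controls without overlap, while in Tdh mutant 2 lies at 34.0 CPM and the other mutants at 97.5 and 115 CPM.

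Of the 13 cytosolic synthetases 1 fell and 0 rose by edgeR. At an unadjusted p under 0.05 by edgeR 1 was lower and 1 higher (Eprs), and DESeq2 called 1 lower and 0 higher. Wars, the tryptophan enzyme, which is also known as a gene induced by interferon, was at 78.8, 116 and 82.4 CPM in controls 1 to 3. In mutants 1 to 3 it was at 46.4, 40.6 and 43.8 CPM, and the mutants formed a tight group far below the controls. The fall was 2.12-fold, with a log2 fold change of -1.08 ± 0.15 (SE, n = 3; edgeR adjusted p = 0.00429). The call held in all 12 alternatives, with log2 fold changes from -1.18 to -0.89. The gene lies on chromosome 12 (108860030 to 108894174, minus strand, GRCm38), and no 50-base stretch of its annotated transcripts occurs in another gene.

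The other 12 synthetases lay between -0.17 (Cars) and 0.33 (Eprs) on the log2 fold change scale. Eprs, which charges both glutamate and proline, was at 191, 165 and 164 CPM in the 3 controls and 231, 202 and 221 CPM in mutants, all mutants being higher (log2 fold change 0.33 ± 0.11 SE, n = 3; edgeR adjusted p = 0.220). With library totals its edgeR adjusted p was 0.0334. Sars was also apart, with 132, 121 and 128 CPM in controls against 137, 139 and 141 CPM in mutants, a difference of 0.14.

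For the remaining synthetases the groups overlapped. Nars (0.13), Tars (0.13), Lars (0.10), Mars (0.08) and Iars (0.01) were at or above 0, and Aars (-0.03), Yars (-0.11), Vars (-0.11) and Gars (-0.13) were below it. Summed over all 13, the synthetases amounted to 1331 ± 10.6 CPM in controls against 1352 ± 95.5 CPM in mutants (SD, n = 3). The corresponding sums were 1052 ± 54.8 and 853 ± 123 CPM for transporters and 2215 ± 126 and 1729 ± 111 CPM for enzymes, of which Gatm and Asns are the largest parts. With TMM-scaled library sizes, all genes together summed to 1061950 ± 32633 CPM in controls and 945531 ± 47456 CPM in mutants. The ratio of mutant to control sums was 0.89 over all genes, 0.81 for transporters, 0.78 for enzymes and 1.02 for synthetases.

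Synthetases outside the set were read in the same way. Of the 7 other cytosolic synthetase genes and 3 complex proteins, 10 in all, none was called by edgeR, at an unadjusted p under 0.05 or by DESeq2, and the median log2 fold change was -0.04. Of 17 mitochondrial synthetases 0 were called by edgeR, with 2 higher and 1 lower at an unadjusted p under 0.05 and 0 by DESeq2, and the median was -0.04.

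Of 19 other amino acid transporters tested, 1 fell and 0 rose by edgeR, while 4 were higher and 3 lower at an unadjusted p under 0.05 and DESeq2 called 1 lower. The 1 was Slc1a3, a sodium-coupled carrier of glutamate and aspartate. It was at 21.95, 19.7 and 21.0 CPM in the control libraries and 9.62, 8.70 and 9.18 CPM in mutants, each group being tight. Its log2 fold change was -1.18 ± 0.12 (SE, n = 3; edgeR adjusted p = 0.000644).

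Of 20 other breakdown enzymes tested, 3 fell and 0 rose by edgeR. At an unadjusted p under 0.05 by edgeR 6 were lower and 0 higher, and DESeq2 called 4 lower and 0 higher. Gpt, the other alanine aminotransferase, was at 9.92, 8.84 and 11.3 CPM in the 3 controls and 4.67, 5.45 and 4.09 CPM in mutants (log2 fold change -1.09 ± 0.18 SE, n = 3; edgeR adjusted p = 0.0125). Aldh4a1, which completes proline breakdown to glutamate, was at 12.6, 17.01 and 14.3 CPM in controls against 7.90, 8.35 and 8.19 CPM in mutants (-0.85 ± 0.15; edgeR adjusted p = 0.0154). Sdsl, a serine dehydratase-like gene, was at 14.1, 12.2 and 11.3 CPM in the control libraries and 7.90, 6.38 and 5.49 CPM in mutants (-0.92 ± 0.17; edgeR adjusted p = 0.0245). No mutant reached the lowest control in any of the 3. Their calls were lost without control 3 (edgeR adjusted p = 0.0762, 0.0560 and 0.0579) or mutant 3 (0.0603, 0.0687 and 0.105), and also without mutant 1 for Gpt (0.0656), control 2 or mutant 1 for Aldh4a1 (0.0875 and 0.0817) and control 1 or 2 for Sdsl (0.0812 and 0.101). With library totals Aldh4a1 and Sdsl also missed the threshold (edgeR adjusted p = 0.0587 and 0.0619).

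Of 12 folate one-carbon enzymes and 8 urea cycle and arginine enzymes tested, 0 were called by edgeR or DESeq2. At an unadjusted p under 0.05 by edgeR, 1 and 2 of them were lower and 0 higher.

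Genes that act in the response to amino acid shortage and endoplasmic reticulum stress were examined next. Of 20 such genes 3 rose and 0 fell by edgeR, with 8 higher and 0 lower at an unadjusted p under 0.05 and 6 higher and 0 lower by DESeq2. Over all genes the shares called higher were 0.545% by edgeR, 5.41% at the unadjusted p and 0.578% by DESeq2. Of the 20 genes 15 had a log2 fold change above 0 and 5 below it, from -0.40 to 4.30 with a median of 0.23. Atf4 itself, which was chosen with its values in view, stood at 198, 176 and 179 CPM in the 3 controls and 186, 178 and 190 CPM in mutants, a log2 fold change of 0.00 ± 0.10 (SE, n = 3). Its activity is set largely by translation, which these counts do not measure. Fgf21, a secreted hormone and known Atf4 target, was at 0.902, 0.663 and 0.577 CPM in controls against 15.7, 14.97 and 11.1 CPM in mutants.

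Nupr1, a stress-induced chromatin protein, was at 272, 314 and 233 CPM in the control libraries and 531, 533 and 561 CPM in mutants. Eif2ak3, the kinase PERK of the endoplasmic reticulum, had 83.0, 101 and 85.5 CPM in the 3 controls and 171, 127 and 186 CPM in mutants. The log2 fold changes were 4.30 ± 0.26, 0.99 ± 0.13 and 0.84 ± 0.15 for Fgf21, Nupr1 and Eif2ak3 (SE, n = 3; edgeR adjusted p = 2.3e-05, 0.00381 and 0.0176). Eif2ak3 missed the threshold when any 1 library except mutant 2 was left out (edgeR adjusted p between 0.0549 and 0.0911). Ddit3, which encodes the stress factor CHOP and was named after its values were seen, had 5.86, 2.76 and 3.08 CPM in controls against 9.14, 9.63 and 6.89 CPM in mutants, with no overlap (log2 fold change 1.17 ± 0.28 SE, n = 3; edgeR adjusted p = 0.0718). Ddit3 was called higher in 5 of 12 alternatives, namely with library totals (adjusted p = 0.0379), no count filter (0.0397), robust dispersion (0.0490) or DESeq2 (0.0318) and without control 1 (0.0158), and the edgeR adjusted p reached 0.283 without control 2.

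The 11 members with the TGATGNAA core lay between -0.31 (Asns) and 0.27 (Got1) on the log2 fold change scale, with a median of -0.03, and 0 of them were called by edgeR. The 25 tested members with an entry but no match had a median of -0.18 and ranged from -0.74 (Gcat) to 0.89 (Amt), with 1 called. Under library totals each of these medians would shift by about the 0.17 of all genes. No test of this difference was made.

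**Figure D4:**
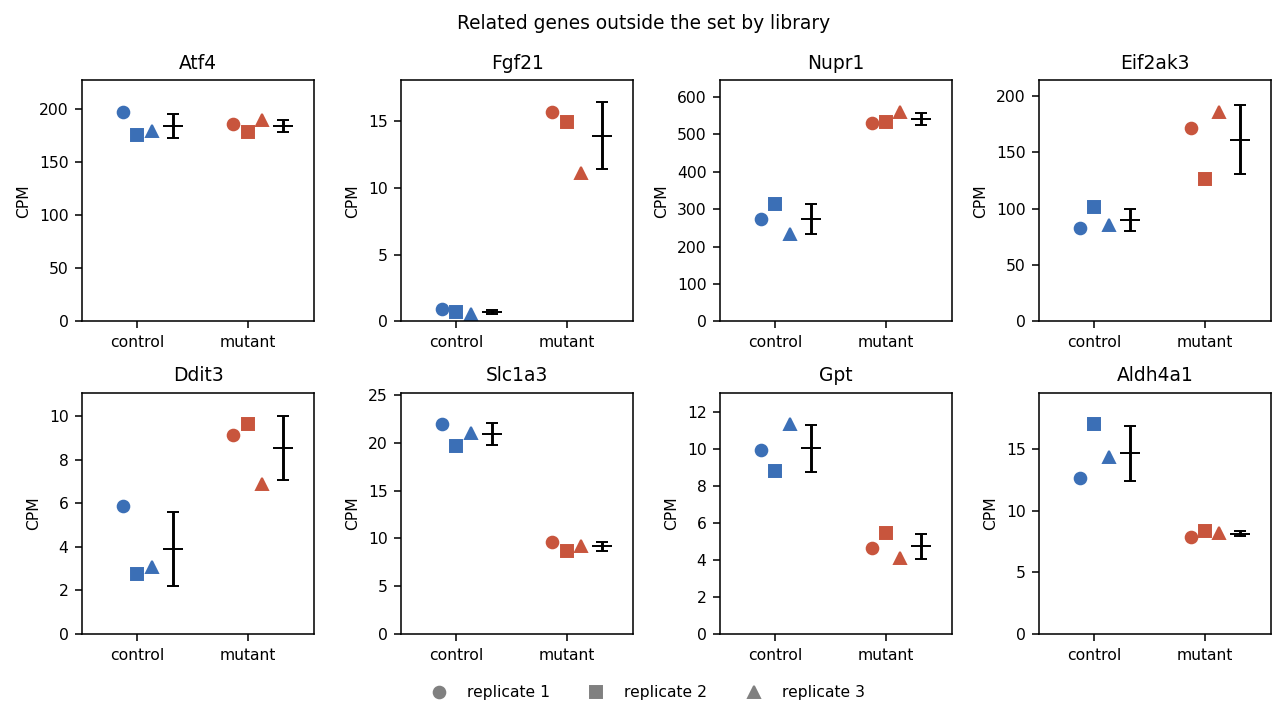
CPM of 8 genes related to the set in each library, with circles, squares and triangles for replicates 1, 2 and 3 and, beside each group, its mean with the SD of 3 libraries. Atf4 is at 176 to 198 CPM in both groups, Fgf21, Nupr1, Eif2ak3 and Ddit3 are higher in mutants without overlap, and Slc1a3, Gpt and Aldh4a1 are lower without overlap.

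Markers of acinar and other cell types were read beside these values. Of 13 acinar markers 1 fell and 0 rose by edgeR (5 lower and 0 higher at an unadjusted p under 0.05, 4 and 0 by DESeq2). Duct markers summed to 632 to 716 CPM in the control libraries and 429 to 602 CPM in mutants, with 0 of 8 called by edgeR, 4 lower and 1 higher at an unadjusted p under 0.05 and 2 lower by DESeq2. Endocrine markers summed to 3207 to 5221 CPM and 3270 to 3564 CPM (1 of 12 lower by edgeR and by DESeq2, 3 lower at an unadjusted p under 0.05) and fibroblast markers to 3091 to 5075 CPM and 3313 to 4708 CPM (0 of 8 by edgeR, 1 higher by DESeq2 and at an unadjusted p under 0.05). Macrophage markers summed to 239 to 290 CPM in the 3 controls and 293 to 393 CPM in mutants, with 2 of 8 tested higher and 1 lower by edgeR and by DESeq2 and 5 higher and 1 lower at an unadjusted p under 0.05. Adipocyte markers summed to 72.2 to 140 CPM in controls against 39.4 to 57.3 CPM in mutants, with 1 of 5 tested lower by edgeR, 3 by DESeq2 and 5 at an unadjusted p under 0.05. Erythroid markers summed to 21.4 to 153 CPM and 14.3 to 37.4 CPM, with 0 of 3 tested called by edgeR or DESeq2, 3 lower at an unadjusted p under 0.05, and Hba-a1 and Hba-a2 listed at 0 throughout. Of 10 liver markers 2 were tested and 0 called by edgeR, with 1 higher by DESeq2 and at an unadjusted p under 0.05, and Serpina1a was listed at 0. Endothelial markers summed to 203 to 216 CPM and 211 to 224 CPM. All genes together summed to 1035410 to 1098390 CPM in controls and 896843 to 991652 CPM in mutants. The part of these markers in the member values was not tested.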

How the data were processed

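The authors deposited raw read counts by gene symbol, in whole numbers, with a file for each library. The build mm10 and the tools STAR, cutadapt 1.13, DESeq2 and HTSeq 0.6.1p1 are named, without roles, per the submitters' processing notes. Annotation, strandedness and the handling of multi-mapped reads: not given in the sources used here. Groups and replicate numbers came from sample titles.

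Counts were tested with edgeR 4.0.16 in R 4.3.3 (TMM, filterByExpr, glmQLFit and glmQLFTest, no covariate, Benjamini-Hochberg over all 13017 genes tested, threshold 0.05), and the code was tested on simulated data. Each SE was derived from the log2 fold change and its F statistic. DESeq2 1.42.0, other scalings, no count filter, a robust dispersion, a replicate block and leaving out each library were the alternatives. The chi-square per degree of freedom between replicates was 5.83 to 20.5, so none was a repeat of another. Precision is limited by 3 libraries per group and, below a few CPM, by counting.

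All 52 members are named, with every library's CPM for called members. Of each related list the called genes with the smallest adjusted p are named, at most 3. Atf4 and Ddit3, which were not called, are named in addition and were picked with their values in view. Members and lists were chosen with earlier results of these data known. Exon lengths, coordinates and 50-base stretches shared between genes came from GENCODE M21 (GRCm38), in which all 52 symbols matched, Gcat with a second overlapping entry. No member shared at least 50 percent of its stretches.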

Additional observations from a re-analysis of the deposited data

How the results depend on the processing

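The call of Wars and that of Prox1 held in all 12 alternatives. With library totals alone, 190 genes were higher and 130 lower, 2 members were higher and 2 lower, and the medians were -0.10 for transporters, -0.0079 for enzymes and 0.17 for synthetases. Some values between -0.15 (Slc7a1) and -0.02 (Slc1a5) then turned positive: 0.10 for Slc1a4, 0.14 for Slc1a5, 0.0089 for Slc7a1, 0.12 for Psph, 0.12 for Got2, 0.070 for Bcat1, 0.047 for Bcat2, 0.13 for Aars, 0.028 for Gars, 0.063 for Vars and 0.053 for Yars. Slc38a1 turned to -6.1e-05 with DESeq2 size factors and Phgdh to -0.0015 with DESeq2. Leaving out 1 library gave 27 to 99 genes higher, 98 to 202 lower, 0 to 1 members higher, 1 to 4 lower, and a synthetase median between -0.074 and 0.14. It changed the sign of further values, among them Tdh (0.30 with all libraries) and Slc7a11 (0.22), which were not near 0. The ranges of these values were -0.054 to 0.28 for Slc7a7, -0.082 to 0.068 for Slc38a1, -0.21 to 0.10 for Psph, -0.074 to 0.15 for Iars, -0.19 to 0.0020 for Vars, -0.19 to 0.072 for Slc1a4, -0.14 to 0.20 for Phgdh, -0.15 to 0.13 for Got2, -0.12 to 0.11 for Aars, -0.030 to 0.054 for Atf4, -0.24 to 0.12 for Slc1a5, -0.053 to 0.065 for Glul, -0.29 to 0.087 for Bcat1, -0.086 to 0.29 for Mars, -0.076 to 0.20 for Shmt1, -0.29 to 0.016 for Slc7a1, -0.043 to 0.45 for Slc7a11 and -0.016 to 0.67 for Tdh. Their cause was not tested. Same-numbered libraries did not deviate together (correlations 0.0798, 0.0289 and -0.0708), and not every library correlated best with its own number. With the replicate block 53 genes were higher and 188 lower, 3 members were lower, Gls2 (edgeR adjusted p = 0.0692) not being among them, and Slc38a1 was at -0.0041. Depth limits Slc3a1 and Gldc, which could not be tested.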
